A study of Mus musculus with 6 samples.

Results

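IGKV6-15, IGKV6-17 and IGKV6-23 are 3 V genes of the mouse immunoglobulin kappa light chain locus, and their rearranged transcripts were described here in follicular B cells of 2 mice. A clonotype was taken as a member when its best V alignment was to one of the 3 genes. The members were 126 of the 1818 kappa clonotypes of the iB mouse and 117 of the 1696 of the B6 mouse, or 243 of 3514 in all. In each mouse IGKV6-15 gave 42 and 43 clonotypes, IGKV6-17 gave 42 and 27, and IGKV6-23 gave 42 and 47 (iB mouse first). The genes had been chosen by their share of kappa reads, so their read totals are given as a description and no test was made on them.

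The iB mouse was 1 μMT recipient, a strain that carries a targeted Ighm allele on a C57BL/6 background and lacks mature B cells of its own. At 8 to 10 weeks of age it had been sublethally irradiated and given hematopoietic progenitors (iHPCs) made from the iR9X2 embryonic stem cell line, which has a C57BL/6 background, expresses GFP and carries Runx1, Hoxa9 and Lhx2 in a doxycycline-inducible cassette at Rosa26. The mouse drank doxycycline water, and naïve follicular B cells were sorted from its spleen 4 weeks after transplantation. The control was the same sorted population from 1 C57BL/6 (B6) mouse, whose age is not given in the sources used here. Heavy, kappa and lambda transcripts were amplified from RNA by 5′ RACE, which needs no V gene primer, and each mouse gave 1 library per chain. There was no second mouse in either group, so every test below compares 2 libraries, or genes within a library, and not the conditions.

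A kappa light chain gene is made when the RAG recombinase joins 1 of many IGKV genes to 1 of the IGKJ genes upstream of the IGKC constant exon. The ends can lose bases to nucleases, gain palindromic (P) bases where the hairpin opens off-centre, or gain untemplated (N) bases from terminal transferase, an enzyme that is largely switched off by the time light chains rearrange. Short stretches that both ends share can align the ends and leave bases that either gene could have supplied. The joined region encodes CDR3, the loop at the centre of the antigen-binding site. The RefSeq annotation (GRCm38.p6) places the 3 V segments on chromosome 6, Igkv6-15 at 70406469 to 70406992, Igkv6-17 at 70371469 to 70371993 and Igkv6-23 at 70260409 to 70260933. They lie 316, 351 and 462 kb from Igkj1. IGKJ1, IGKJ2, IGKJ4 and IGKJ5 were the J genes found with them.

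The V ends set what each joint can look like, and they are shown first. These are the last 26 bases of each V gene, from the conserved cysteine codon to the recombination site, as carried by 22, 13 and 14 clonotypes of the 3 genes that had lost no V base. Capitals mark positions at which the genes differ.

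IGKV6-15: tgtcagcaaTatAACagCTAtcctcT
IGKV6-17: tgtcagcaaCatTATagTACtcctcC
IGKV6-23: tgtcagcaaTatAGCagCTAtcctcT

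IGKV6-15 and IGKV6-23 differed at 1 of the 26 bases, A14G with positions counted from the first base shown, which turns an asparagine codon into a serine codon. IGKV6-15 and IGKV6-17 differed at 7 bases, and 1 of them, T26C, is the last base before the joint. The J genes, in CDR3 up to the conserved phenylalanine codon, were read from clonotypes that had lost no J base.

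IGKJ1: gtggacgttc
IGKJ2: tgtacacgttc
IGKJ4: attcacgttc
IGKJ5: gctcacgttc

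The last bases of IGKV6-15 and IGKV6-23, ct, also follow the first base of IGKJ5. IGKV6-17, which ends in cc, does not share them.

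The kappa libraries held 562884 (iB) and 534314 (B6) reads assigned to clonotypes, so 3 reads stood for 0.000533% and 0.000561% of a library. Reads carried no molecular identifiers and are not independent molecules, so intervals below cover counting error alone. The same CDR3, V gene and J gene occurred in both mice for 894 kappa clonotypes, 49.2% of those in the iB library and 52.7% of those in the B6 library. The heavy chain libraries shared 34 clonotypes, 0.436% and 0.501%.

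The 3 genes held 14.6% of kappa reads in the iB mouse and 17.8% in the B6 mouse, but 6.93% and 6.90% of clonotypes. IGKV6-15 had 34276 and 44276 reads, 6.09% and 8.29% of the library, and ranked first and second among 102 V genes. IGKV6-17 had 27398 and 21053 reads, 4.87% and 3.94%. IGKV6-23 had 20728 and 29845 reads, 3.68% and 5.59%. The iB to B6 ratio of read share was 0.735, 1.24 and 0.659 in that order, so the highest share lay with the B6 mouse for IGKV6-15 and IGKV6-23 and with the iB mouse for IGKV6-17. A ratio below 1 over 1.5 was found for 6 of 69 V genes (8.7%), IGKV6-23 among them, and a ratio over 1.5 for 15 of 69 (21.7%), none of them a member. The reads per clonotype were uneven. The median clonotype had 75 reads in each mouse for IGKV6-15, 53 and 89 for IGKV6-17, and 58 and 55 for IGKV6-23, against 41 and 36 for all other IGKV genes. Because the genes had been chosen by read share, their read shares and medians are not independent of that choice. The 5 clonotypes with most reads held 81.4% and 85.5% of the reads of IGKV6-15, 82.4% and 83.3% of IGKV6-17, and 76.5% and 82.2% of IGKV6-23. Among V genes with at least 20 clonotypes, these shares ranked 11, 8 and 26 of 42 in the iB mouse. They ranked 8, 12 and 15 of 39 in the B6 mouse.

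The clonotypes with most reads were nearly the same in the 2 mice, and their CDR3s are shown because the J gene and junction results turn on them. Each is written from the cysteine codon to the phenylalanine codon, with the bases past the end of the V gene in capitals.

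IGKV6-15 with IGKJ5, whole V end: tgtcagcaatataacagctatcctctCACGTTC
IGKV6-15 with IGKJ2: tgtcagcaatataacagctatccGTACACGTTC
IGKV6-15 with IGKJ5, 3 V bases lost: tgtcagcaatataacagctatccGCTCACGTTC
IGKV6-17 with IGKJ1: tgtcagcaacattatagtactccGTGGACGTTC
IGKV6-17 with IGKJ2: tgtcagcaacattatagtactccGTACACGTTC
IGKV6-17 with IGKJ1, 1 V base lost: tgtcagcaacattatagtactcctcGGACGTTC
IGKV6-17 with IGKJ5: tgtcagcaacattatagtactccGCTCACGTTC
IGKV6-23 with IGKJ5, whole V end: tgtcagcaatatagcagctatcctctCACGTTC
IGKV6-23 with IGKJ2: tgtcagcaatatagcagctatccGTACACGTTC
IGKV6-23 with IGKJ4: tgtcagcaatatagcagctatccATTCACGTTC

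The IGKV6-15 clonotype that keeps the whole V end before IGKJ5 had 11430 reads in the iB mouse and 13285 in the B6 mouse, 33.3% and 30.01% of the reads of that gene. The IGKV6-15 joint to IGKJ2 had 7302 and 12910 reads. The IGKV6-15 joint to IGKJ5 with 3 V bases lost had 3946 and 5808 reads. These were the first 3 of IGKV6-15 in both mice, in the same order. The IGKV6-17 joint to IGKJ1 led that gene in both mice, with 6912 and 4999 reads. The IGKV6-17 joint to IGKJ2 had 5854 and 3436 reads. The other IGKV6-17 joint to IGKJ1, 1 V base shorter, had 3996 and 2796 reads. The IGKV6-17 joint to IGKJ5 had 3692 and 4373 reads, which placed it above the shorter IGKJ1 joint in the B6 mouse and below it in the iB mouse. The IGKV6-23 joint of the whole V end to IGKJ5 had 6302 and 9188 reads. Its joints to IGKJ2 and IGKJ4 followed in both mice, with 4401 and 6277 reads and with 2610 and 4003 reads. IGKV6-15 and IGKV6-17 had the same 5 leading clonotypes in both mice, and IGKV6-23 had 4 of 5 in common. Among the 10 leading clonotypes, 8 were in common for each gene.

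All 12 V to J pairs were found in both mice, and by reads the 3 genes fell into 2 patterns. As the aligner called the J gene, IGKJ5, the one farthest from the V genes, took the largest share of IGKV6-15 and IGKV6-23 reads. IGKJ5 took 49.1% and 45.2% of IGKV6-15 reads and 47.5% and 46.0% of IGKV6-23 reads, and IGKJ1 took 9.62% and 9.07% of the former and 10.7% and 11.2% of the latter. IGKJ1 took the largest share of IGKV6-17 reads, 48.5% and 44.9%, and IGKJ5 took 18.5% and 27.6%. Over all other IGKV genes IGKJ1 took 32.9% and 30.9% of reads and IGKJ5 27.6% and 29.99%. IGKJ2 took 28.2% and 34.7% of IGKV6-15 reads, 24.5% and 16.9% of IGKV6-17 reads, and 27.8% and 28.8% of IGKV6-23 reads. IGKJ4 took 8.55% and 10.7% of IGKV6-17 reads and 11.01% to 14.0% of those of IGKV6-15 and IGKV6-23.

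**Figure D1:**
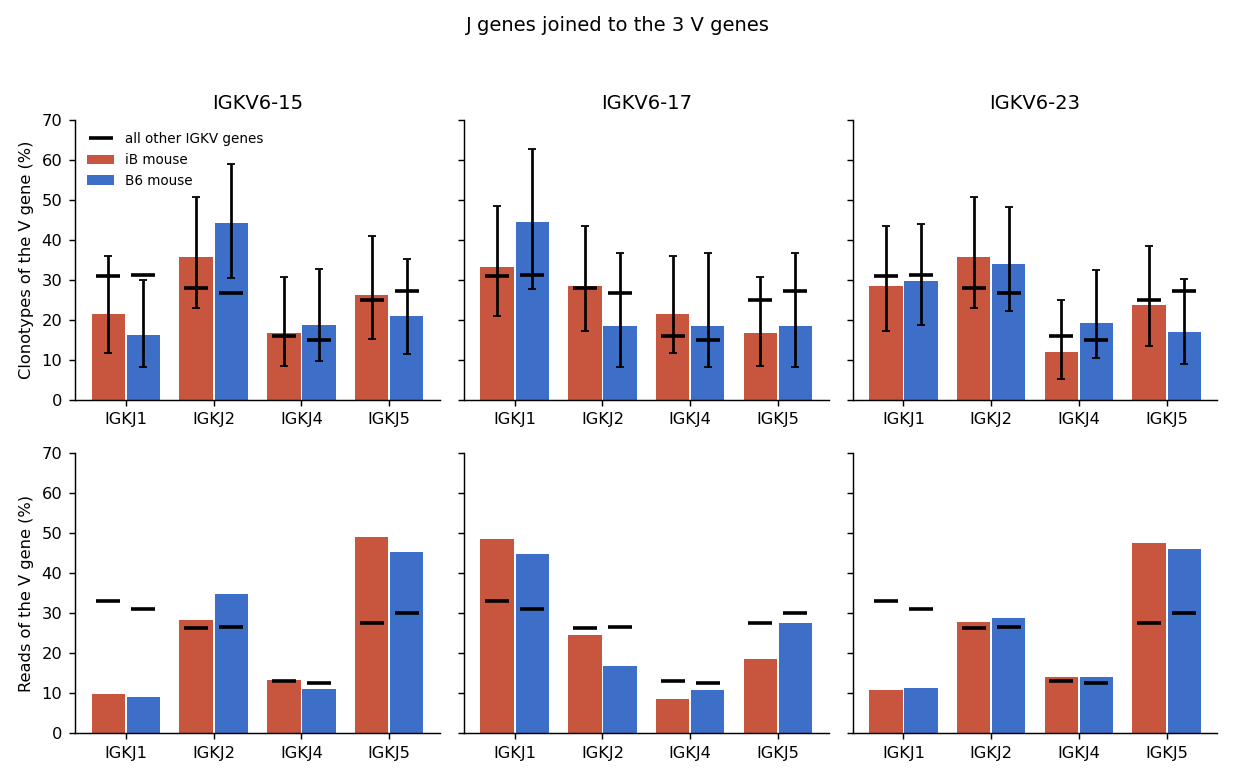
Share of each IGKJ gene among the clonotypes (top row, % of the V gene's clonotypes, bars with 95% Wilson intervals) and among the reads (bottom row, % of the V gene's reads) of IGKV6-15, IGKV6-17 and IGKV6-23 in the iB mouse (red) and the B6 mouse (blue), with black dashes for all other IGKV genes. By reads, as J genes were called, IGKJ5 is highest for IGKV6-15 and IGKV6-23 (45.2% to 49.1%) and IGKJ1 for IGKV6-17 (44.9% and 48.5%). By clonotypes most dashes lie within the intervals.

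With each clonotype counted as 1, no J pairing of the 3 genes passed two-sided Fisher's exact tests with Benjamini-Hochberg adjustment over all V to J pairs of a comparison. Between the mice, 0 of the 12 member pairs passed, as did 0 of 276 pairs over all genes (0%, with 3 at an unadjusted p under 0.05, none a member). The iB minus B6 differences in clonotype share ran from -11.1 percentage points (IGKV6-17 with IGKJ1, 95% Newcombe interval -33.1 to 11.5) to 10.1 points (IGKV6-17 with IGKJ2, -11.4 to 28.3). Against all other IGKV genes, 0 of 12 passed in the iB mouse (2 of 168 over all genes, 1.19%) and 0 of 12 in the B6 mouse (0 of 156, 0%). In the B6 mouse IGKJ2 was on 19 of 43 IGKV6-15 clonotypes (44.2%) against 26.7% elsewhere, and this lowest unadjusted value of Fisher's exact test, p = 0.0146, was p = 0.568 after adjustment. IGKJ5 was on 11 of 42 and 9 of 43 IGKV6-15 clonotypes and on 10 of 42 and 8 of 47 IGKV6-23 clonotypes, shares of 26.2%, 20.9%, 23.8% and 17.02%. The intervals are wide, so shifts of 10 points in a single gene could not be told from counting error, and larger shifts could be missed.

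The high IGKJ5 read share of IGKV6-15 and IGKV6-23 was carried by 1 clonotype each. This clonotype carries all 26 V bases, which are followed by the last 7 bases of IGKJ5, and 2 of its bases, ct, fit either gene. Those 7 bases, cacgttc, also end IGKJ2 and IGKJ4, so the IGKJ5 call rests on the 2 shared bases. The clonotype held 33.3% and 30.01% of IGKV6-15 reads and 30.4% and 30.8% of IGKV6-23 reads. Because ct fits either gene, it also covers joints to IGKJ5 in which V lost 1 or 2 bases. For IGKV6-17, whose V end does not share those bases, such joints form a clonotype of their own. That clonotype had 641 and 795 reads, 2.34% and 3.78% of its gene. The whole-V joint of IGKV6-17 had 506 and 520 reads, 1.85% and 2.47% of its gene, and its J bases fit 3 J genes.

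IGKV6-17 with IGKJ5, whole V end: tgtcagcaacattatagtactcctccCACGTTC

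With that joint left out, IGKJ5 took 23.6% and 21.7% of IGKV6-15 reads and 24.6% and 22.0% of IGKV6-23 reads, and IGKJ2 became the highest with 42.3% and 49.6% and with 39.9% and 41.6%. IGKJ1 then took 14.4% and 12.95% of IGKV6-15 reads and 15.4% and 16.2% of IGKV6-23 reads. For IGKV6-17 the J shares hardly moved without its joint, with IGKJ1 at 49.4% and 46.0%. In bulk RNA, more cells with a joint and more RNA per cell cannot be told apart.

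Likeness of J use was measured as a distance, the summed absolute difference between the J shares of clonotypes of a pair of genes, divided by 2 and averaged over the mice. It was taken to the 36 other genes that reached 20 clonotypes in both mice. IGKV6-15 was nearest to IGKV14-111 (0.0978), IGKV6-23 (0.106) and IGKV17-121 (0.108). IGKV6-23 was nearest to IGKV14-111 (0.0661), IGKV1-110 (0.0823) and IGKV6-32 (0.0980). IGKV6-17 was nearest to IGKV19-93 (0.0597), IGKV12-44 (0.0664) and IGKV3-2 (0.0999). Its distance was 0.152 to IGKV6-23 and 0.224 to IGKV6-15. The median distances over the 36 genes were 0.191, 0.160 and 0.180 for IGKV6-15, IGKV6-23 and IGKV6-17. The distances rest on 27 to 47 clonotypes of each of these genes per mouse, and differences between them were not tested.

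Bases that fit either gene were counted as V bases here. On that count, most reads came from V genes that had lost either no base or 3 bases at the joint. A loss of 3 bases leaves the V gene ending in cc and was seen in 49.5% and 56.8% of IGKV6-15 reads, 69.2% and 71.7% of IGKV6-17 reads, and 49.6% and 56.0% of IGKV6-23 reads, against 47.3% and 45.8% over all other IGKV genes. The whole V end was kept in 41.1% and 37.1% of IGKV6-15 reads and 36.0% and 33.6% of IGKV6-23 reads. Most of these reads were the 1 clonotype called IGKJ5, whose last 2 V bases fit either gene. It held 33.3% and 30.01% of all IGKV6-15 reads and 30.4% and 30.8% of all IGKV6-23 reads. For IGKV6-17 the whole V end was kept in 9.44% and 8.82% of reads. IGKV6-17 in place had a further peak at 1 base lost, with 17.1% of reads in each mouse. By clonotypes the ends were more spread. The mean loss was 2.48 ± 2.07 and 3.30 ± 4.13 bases for IGKV6-15 (SD over 42 and 43 clonotypes), 4.12 ± 3.82 and 3.07 ± 3.43 for IGKV6-17 (42 and 27 clonotypes), and 3.31 ± 2.30 and 3.53 ± 2.35 for IGKV6-23 (42 and 47 clonotypes). The median loss was 3 bases for each gene in each mouse. The B6 mean of IGKV6-15 includes 2 clonotypes of 1 read each that had lost 15 and 23 bases. Clonotypes of 1 to 3 reads that had lost 13 to 18 bases likewise enter the IGKV6-17 means.

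**Figure D2:**
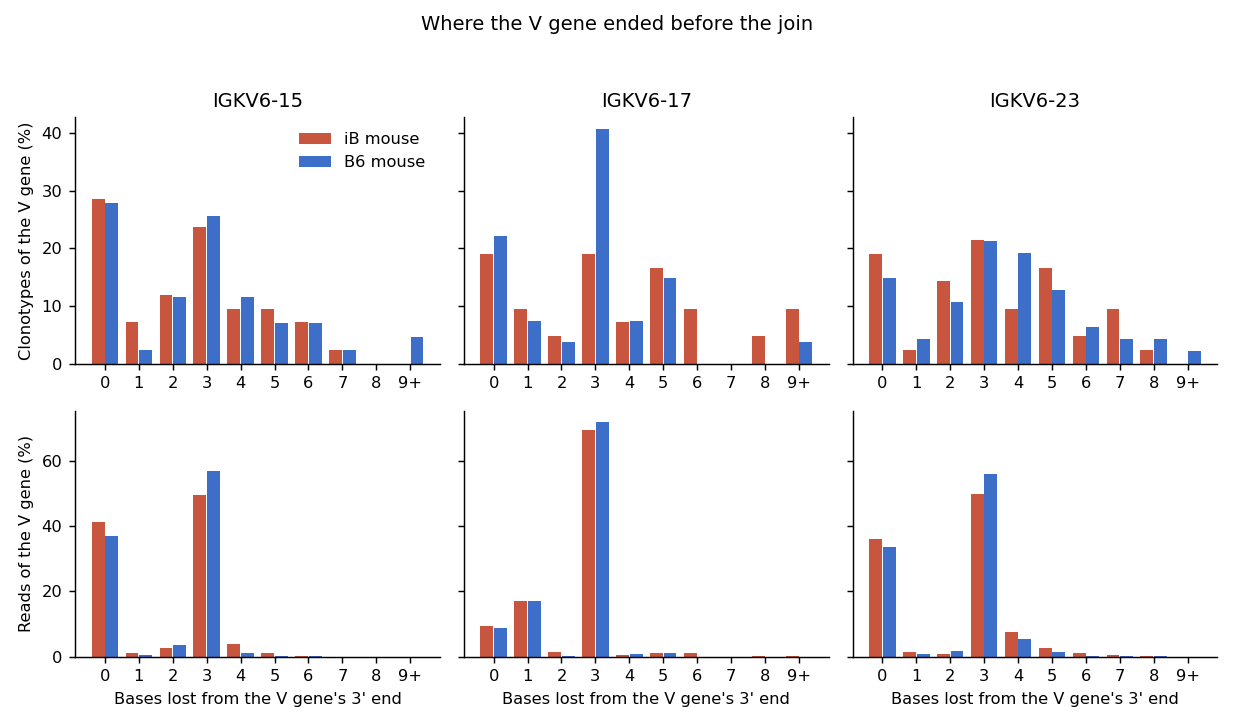
Number of bases lost from the 3′ end of the V gene (x axis) against the share of clonotypes (top row) and of reads (bottom row) of each V gene, in %, for the iB mouse (red) and the B6 mouse (blue). Bases that fit either gene are counted as V bases. Reads peak at 0 and 3 bases for IGKV6-15 and IGKV6-23 and at 3 bases for IGKV6-17 (69.2% and 71.7%), which has a smaller peak at 1 base (17.1% in each mouse).

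Junctions were sorted into those with bases that V and J both explain, those where the V end meets the J start, and those with extra P or N bases in between. Extra bases were common among clonotypes and rare among reads. They were found in 18 of 42 and 21 of 43 IGKV6-15 clonotypes but 3.28% and 3.65% of its reads, in 15 of 42 and 6 of 27 IGKV6-17 clonotypes but 1.80% and 1.35% of reads, and in 15 of 42 and 17 of 47 IGKV6-23 clonotypes but 3.60% and 2.02% of reads. The clonotype with extra bases that had most reads had 336 reads in the iB mouse and 481 in the B6 mouse, both of IGKV6-15. That of the B6 mouse differs by 1 base from the leading IGKV6-15 clonotype. Over all other IGKV genes extra bases were in 31.2% and 30.1% of clonotypes and 6.38% and 6.69% of reads. Shared bases marked 37.0% and 32.1% of IGKV6-15 reads and 36.8% and 33.8% of IGKV6-23 reads, but 2.57% and 4.33% of IGKV6-17 reads, against 18.6% and 17.6% over all other IGKV genes. A high share was not particular to these genes, since IGKV6-14, with 16 and 12 clonotypes, had 35.04% and 42.4% of its reads in this class.

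**Figure D3:**
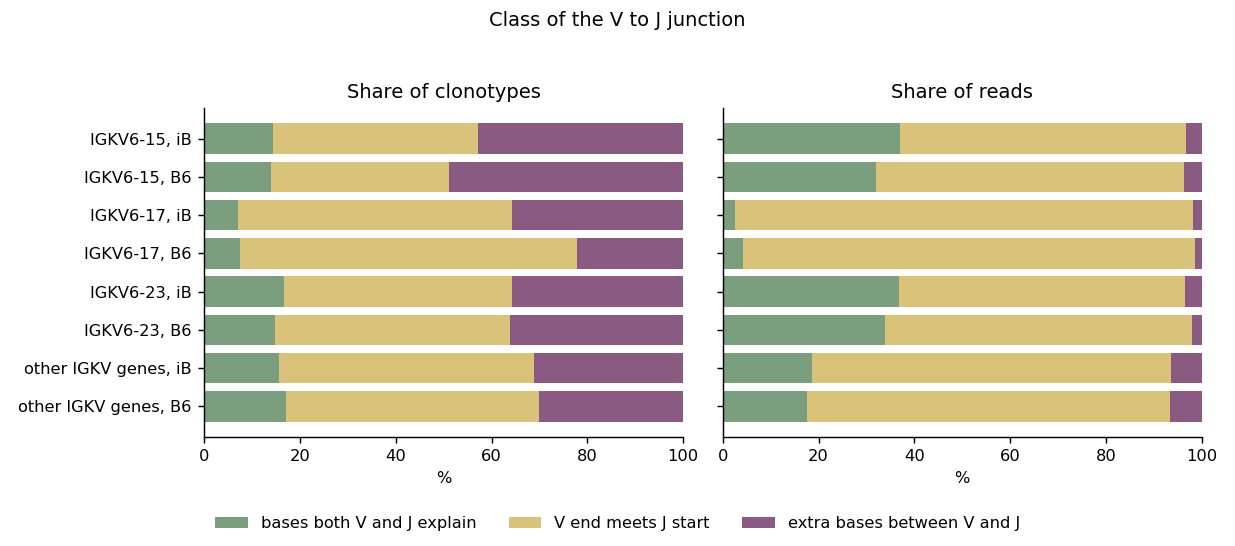
Share of clonotypes (left) and of reads (right), in %, whose V to J junction had bases that both genes explain (green), a V end that met the J start (yellow) or extra P or N bases (purple), for each V gene and all other IGKV genes in the iB and B6 mice. Extra bases are on 22.2% to 48.8% of the clonotypes of the 3 genes but on 1.35% to 3.65% of their reads, and shared bases mark at least 32.1% of IGKV6-15 and IGKV6-23 reads but at most 4.33% of IGKV6-17 reads.

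As the aligner reported them, junctions had no N base in 33 of 42 (78.6%) and 29 of 43 (67.4%) IGKV6-15 clonotypes, 31 of 42 (73.8%) and 23 of 27 (85.2%) IGKV6-17 clonotypes, and 38 of 42 (90.5%) and 36 of 47 (76.6%) IGKV6-23 clonotypes. None of these shares passed Fisher's exact test between the mice (0 of 69 genes over all, 0%, and 0 had an unadjusted p under 0.05). The largest difference, 13.9 points for IGKV6-23, had a 95% interval of -2.04 to 28.9. Against the other IGKV genes, 0 of 3 passed in the iB mouse (4 of 42 genes over all, 9.52%) and 0 of 3 in the B6 mouse (2 of 39, 5.13%), where IGKV6-15 had the lowest adjusted p of the 3 genes, 0.314.

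The usual kappa CDR3 has 11 amino acids with both anchor residues, and this length held a larger share of the reads than of the clonotypes of each gene. The same held over all other IGKV genes, with 48.1% and 53.2% of clonotypes and 85.3% and 89.4% of reads. It was found in 13 of 42 and 15 of 43 IGKV6-15 clonotypes (31.0% and 34.9%) with 88.8% and 94.3% of reads. It was found in 16 of 42 and 15 of 27 IGKV6-17 clonotypes (38.1% and 55.6%) with 93.9% and 95.8% of reads. It was found in 15 of 42 and 16 of 47 IGKV6-23 clonotypes (35.7% and 34.0%) with 80.9% and 87.9% of reads. CDR3s of 10 amino acids took 14.3% and 9.98% of IGKV6-23 reads, against 5.41% and 1.87% for IGKV6-15 and 2.98% and 3.10% for IGKV6-17. Between the mice 0 of 3 genes passed the test on the share of clonotypes at 11 amino acids (0 of 69 over all, 0%, with 1 at an unadjusted p under 0.05). Against the other IGKV genes 0 of 3 passed in the iB mouse (3 of 42, 7.14%) and 0 of 3 in the B6 mouse (1 of 39, 2.56%). The share of IGKV6-23 in the B6 mouse differed from the 52.8% of the other genes by -18.7 points (95% interval -30.8 to -4.23) and had an adjusted p of 0.154 by Fisher's exact test.

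Different joints could encode the same protein. Over both mice together, 4 IGKV6-15 nucleotide sequences called with 3 J genes encoded 1 CDR3 protein, that of the whole V end joined to IGKJ5. They held 47.6% and 46.9% of the reads of the gene. The sequence ending in aacgttc was found in the B6 mouse only, and its J bases fit 4 J genes. In IGKV6-23, 4 nucleotide sequences called with 3 J genes over both mice likewise encoded 1 protein with 41.6% and 44.6% of reads. Here the sequence ending in aacgttc was found in the iB mouse only. For IGKV6-17, 3 nucleotide sequences over both mice was the most for any CDR3 protein. The proteins that reached it held 0.854% and 1.71% and 7.31% and 8.05% of reads. In protein, 20 of 47 IGKV6-15 CDR3s, 15 of 39 IGKV6-17 CDR3s and 21 of 52 IGKV6-23 CDR3s occurred in both mice.

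IGKV6-15 and IGKV6-23 carried largely the same junctions. After base 14, the only base at which their V ends differ, 26 identical junction sequences were found on both genes in the iB mouse and 24 in the B6 mouse. They made up 61.9% of IGKV6-15 and 61.9% of IGKV6-23 clonotypes in the iB mouse, and 55.8% and 51.1% in the B6 mouse. They held 95.9% and 95.4% of reads in the iB mouse and 96.9% and 96.8% in the B6 mouse. Of 77 junctions found with either gene, 17 occurred with both genes in both mice. Log10 reads of the junctions on both genes correlated across junctions, with Pearson's r of 0.845 (26 junctions, iB) and 0.808 (24 junctions, B6), a description over joints that share library and sequence. IGKV6-15 had more reads than IGKV6-23 for 17 of 26 and 18 of 24 of them.

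**Figure D4:**
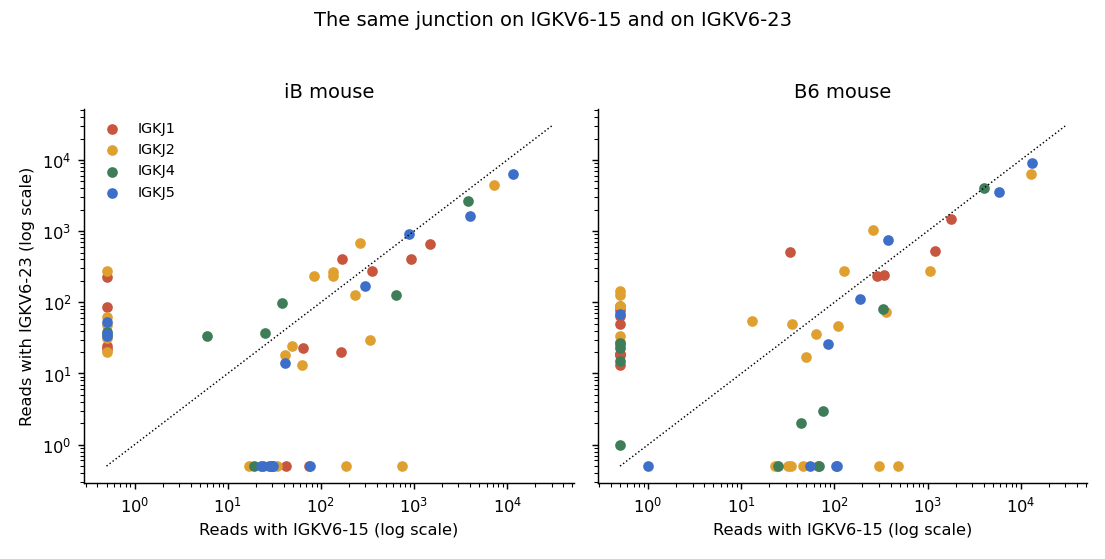
Reads of each junction sequence on IGKV6-15 (x axis, log scale) and on IGKV6-23 (y axis, log scale) in the iB mouse (left) and the B6 mouse (right), coloured by J gene, with junctions found on 1 gene drawn at 0.5 reads and equal reads as a dotted line. The IGKJ5 joint with the whole V end is the point at the upper right, with 11430 and 6302 reads in the iB mouse and 13285 and 9188 in the B6 mouse.

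Clonotypes found in both mice with the same CDR3, V gene and J gene were 22 for IGKV6-15, 18 for IGKV6-17 and 24 for IGKV6-23. These were 52.4% (95% Wilson interval 37.7% to 66.6%) of the iB and 51.2% (36.8% to 65.4%) of the B6 clonotypes of IGKV6-15. For IGKV6-17 they were 42.9% (29.1% to 57.8%) and 66.7% (47.8% to 81.4%), and for IGKV6-23 57.1% (42.2% to 70.9%) and 51.1% (37.2% to 64.7%). Over all other IGKV genes 49.1% and 52.6% were found in both mice, within each of these intervals. The shared clonotypes held 92.8% to 98.3% of the reads of each gene, against 91.1% and 93.0% for the other IGKV genes. Their share of the library lay within 2-fold between the mice for 14 of 22 IGKV6-15, 14 of 18 IGKV6-17 and 17 of 24 IGKV6-23 clonotypes, and log10 reads had a Pearson's r of 0.881, 0.939 and 0.896 over them, against 0.882 over 830 clonotypes of the other genes, all as a description. Joints made independently in each mouse and reads exchanged between the libraries cannot be told apart in these tables.

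**Figure D5:**
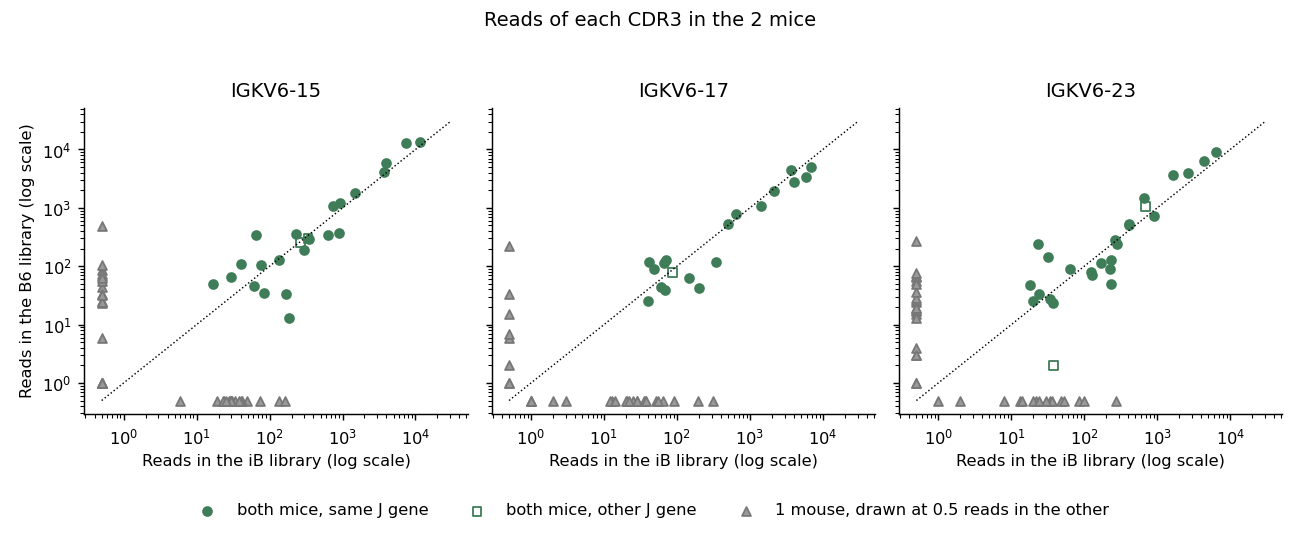
Reads of each CDR3 in the iB library (x axis, log scale) and the B6 library (y axis, log scale) for the 3 V genes, with CDR3s found in both mice with the same J gene (filled circles) or another J gene (open squares), those of 1 mouse at 0.5 reads in the other (triangles), and equal reads as a dotted line. The CDR3s with most reads lie near the line, and triangles lie at 481 reads or fewer.

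The J gene is not certain for short J ends. Each table lists a CDR3 sequence on 1 row, and 5 of the 69 member CDR3s with the same V gene in both mice were given another J gene in the other mouse. The largest had 687 reads as IGKV6-23 with IGKJ5 in the iB mouse and 1047 reads as IGKV6-23 with IGKJ2 in the B6 mouse, and its 7 bases past the V end fit 3 J genes.

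IGKV6-23, J gene called differently: tgtcagcaatatagcagctatccCACGTTC

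Of the iB and B6 clonotypes, 14 of 126 and 17 of 117 had J bases that fit more than 1 IGKJ gene, with 2.93% and 3.47% of member reads. This count took bases that fit both V and J as J bases. Without them, the leading whole-V joints of IGKV6-15 and IGKV6-23 called IGKJ5 are left with cacgttc, which fits the same 3 J genes. They held 33.3% and 30.01% of IGKV6-15 reads and 30.4% and 30.8% of IGKV6-23 reads. With the J gene set aside, the clonotypes of 1 mouse with most reads were small. Of IGKV6-15 they had 165 reads (iB mouse, IGKJ1) and 481 reads (B6 mouse, IGKJ2, the whole V end followed by aacgttc). Of IGKV6-17 they had 309 reads (iB, IGKJ2) and 218 reads (B6, IGKJ4), and of IGKV6-23 272 reads (iB, IGKJ2) and 274 reads (B6, IGKJ2).

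IGKV6-15, B6 mouse only: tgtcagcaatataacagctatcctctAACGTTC
IGKV6-23, iB mouse only: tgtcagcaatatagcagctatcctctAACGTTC

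The same whole-V joint ending in aacgttc was thus on IGKV6-15 in the B6 mouse only and on IGKV6-23 in the iB mouse only. It differs by 1 base from the leading clonotype of its gene, which ends in cacgttc. That clonotype had 13285 reads for IGKV6-15 in the B6 mouse and 6302 for IGKV6-23 in the iB mouse. The merging of near-identical clonotypes left the joint apart, since it was done within a called J gene. CDR3s of 1 mouse held 2.40% and 2.54% of IGKV6-15 reads, 3.89% and 1.34% of IGKV6-17 reads, and 3.67% and 2.73% of IGKV6-23 reads.

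Stop codons and mismatches to the germline V sequence were counted within CDR3. Every clonotype of both kappa libraries, 1818 and 1696, was in frame, so this is not a trait of these genes. A stop codon was in 3 of 126 iB and 4 of 117 B6 member clonotypes (2.38% and 3.42%), with 32 and 37 reads in all. Among the other IGKV genes it was in 0.768% and 1.08% of clonotypes, and the difference was not tested. Mismatches to the V gene within CDR3 were in 5 of 126 iB and 16 of 117 B6 member clonotypes, against 204 of 1692 and 240 of 1579 of the other IGKV genes. The largest among the members had 32 and 145 reads and was the same IGKV6-23 joint to IGKJ2 in both mice. The best V hit was never tied. Further V genes were listed as lesser hits for 10 of 42 and 4 of 27 IGKV6-17 clonotypes and for at most 1 clonotype of either other gene in a mouse.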

How the data were processed

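Kappa libraries of 1 iB-μMT mouse and 1 B6 mouse were used, and the 3 genes, the comparison genes and the tests were chosen with earlier results of these data known. The authors sorted naïve follicular B cells, ran 5′ RACE, sequenced on MiSeq and assembled clonotypes with MiXCR. The deposited tables give, per clonotype, the read count, the fraction of reads and a minimum CDR3 quality score. The submitters' notes name bcl2fastq and mm10. Read counts and alignments were used as deposited, and the fraction and score columns were checked only.

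The first V and J hits named the genes (102 of 102 V names matched RefSeq). V and J ends came from the deposited reference points. A V end that ran past a mismatch inside J was moved back to it for trimming and junction classes, not for the tests. Clonotype counts were compared with two-sided Fisher's exact tests for V genes with at least 20 clonotypes, adjusted by Benjamini-Hochberg, threshold 0.05. Intervals are 95% Wilson and Newcombe. Named clonotypes are the first 3 by reads in each mouse and the first of 1 mouse only, and further ones were named after their values were seen. SciPy 1.17.1 and pandas 2.3.3 were used. The J test between the mice was tried in 20 simulations that moved 50% of the clonotypes of chosen genes to IGKJ4 in the iB library. It called 60% of the changed genes and 0% of the unchanged ones.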

Additional observations from a re-analysis of the deposited data

How the results depend on the processing

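Each tested share was recomputed, where the gene still reached the minimum of 20 clonotypes, with a floor of 2 or 5 reads per clonotype, near-identical clonotypes merged, a unique best V hit, productive clonotypes, shared clonotypes left out, a minimum of 10 clonotypes, and the deeper library drawn down. Fits with P bases as inserted, read weights and, chosen after seeing the data, unambiguous J ends, V ends cut at a mismatch and the J gene ignored were added. With shared clonotypes left out, IGKV6-23 in the iB mouse and IGKV6-17 in the B6 mouse fell below it and had no value against the other genes, so 8 of 12 V to J pairs were tested in each mouse. No member passed the threshold where it was tested (158 values, lowest adjusted p 0.0690), so the counts of called J pairs stayed at 0. Of 316 differences of single V to J pairs, 24 changed sign, none over 5.26 points in size. Differences in share (percentage points) that changed sign were these. For junctions with no inserted base against the other IGKV genes they were IGKV6-23 in the iB mouse with P bases counted (-4.13), IGKV6-23 in the B6 mouse after merging (3.65), and with read weights IGKV6-15 in the iB (2.32) and B6 (2.29) mice, IGKV6-17 in the iB mouse (3.72) and IGKV6-23 in the B6 mouse (3.86). Between the mice IGKV6-23 turned to -0.677 with read weights. For CDR3s of 11 amino acids, IGKV6-23 between the mice turned to -4.02 with at least 5 reads, -0.636 with productive clonotypes and -6.92 with read weights. Against the other genes, IGKV6-17 in the B6 mouse turned to -0.364 with productive clonotypes, and with read weights IGKV6-15 in the iB (3.14) and B6 (4.72) mice and IGKV6-17 in the iB mouse (8.48) turned. The iB to B6 ratio of read share of IGKV6-17 moved from 1.24 to 2.35 with shared clonotypes left out. The cause was not tested for any of these, beyond the few clonotypes with most reads that set a read-weighted share. No other value moved out of its bounds. No paired analysis was possible because each group had 1 mouse and no result came from replicates. With 27 to 47 clonotypes per gene and mouse, the counts limit every share above.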

Other observations

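The other 6 IGKV6 genes found each gave fewer reads in each mouse than any of the 3 described above. Those 3 had been chosen by read share, so this order is no separate result. IGKV6-32 had 32 and 30 clonotypes with 17127 and 12631 reads (iB mouse first), IGKV6-25 had 19 and 12 with 14988 and 11089 reads, and IGKV6-20 had 24 and 23 with 9258 and 9422 reads. IGKV6-13 had 24 and 26 clonotypes with 2827 and 4167 reads, IGKV6-14 had 16 and 12 with 2657 and 2039 reads, and IGKV6-29 had 4 in each mouse with 223 and 200 reads. Like IGKV6-17, IGKV6-20, IGKV6-25 and IGKV6-32 had most of their reads at V ends that had lost 3 bases (80.7% and 85.3%, 66.7% and 81.7%, 73.7% and 80.8%) and few at whole V ends (10.02% and 5.33%, 10.8% and 10.3%, 9.39% and 8.37%). With bases that fit either gene counted as V bases, IGKV6-13 and IGKV6-14 kept the whole V end in 45.7% and 39.1% and in 41.1% and 42.5% of reads. IGKV6-13 lost 3 bases in 7.39% and 3.94% of reads.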
